A study of Homo sapiens with 9 samples.

Results

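Cytosolic DNA sensing was followed through 9 genes of the 60605 in the deposited table. They were chosen by symbol for their known roles, with earlier results of these data known: the sensors CGAS, IFI16 and AIM2, the adaptor STING1, the kinases TBK1 and IKBKE, the transcription factor IRF3, and the enzymes TREX1 and SAMHD1. All 9 are listed in the table, 8 averaged 0.1 FPKM or more and were tested, and TREX1 had 0 counts in every library. RNA was sequenced from TE13 cells, an established human esophageal squamous cell carcinoma (ESCC) line, in 3 conditions, transfected with PARylator siRNA.1, with PARylator siRNA.2 or with control siRNA. Each condition has 3 libraries, which the series describes as biological replicates. PARylator is the long noncoding RNA LINC00885, so both siRNAs were aimed at the same transcript. All cells carried an siRNA, a single control siRNA served both comparisons, no library of untransfected cells was analysed here, and a single cell line was used. The comparisons with control therefore share their 3 control libraries and are given side by side.

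In mammalian cells, DNA is normally kept in the nucleus and mitochondria, and DNA in the cytosol is read as a sign of infection or damage. The enzyme cGAS, the product of CGAS, binds double-stranded DNA and makes the cyclic dinucleotide cGAMP, which binds STING on the endoplasmic reticulum. STING then recruits TBK1, which phosphorylates IRF3, and phosphorylated IRF3 enters the nucleus and switches on interferon genes. IFI16 and AIM2 belong to the PYHIN family of DNA-binding proteins, and AIM2 forms an inflammasome with the adaptor ASC and caspase-1. Several genes of this pathway are themselves interferon-stimulated genes, which rise after interferon reaches its receptor. The question put to the RNA data was which of these genes changed in abundance after PARylator knockdown. Phosphorylation, cGAMP and the proteins were not measured by these libraries.

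Total counts on genes were between 15337917 and 22559998 per library, and the siRNA.2 libraries, at 19213164 or more, were the deepest. LINC00885 had 6 to 12 counts in the control libraries, 2 to 5 in the siRNA.1 libraries and 0 to 4 in the siRNA.2 libraries, and its change passed the edgeR test with neither siRNA (adjusted p = 0.376 and 0.0659), so these libraries check the knockdown only weakly. All 10 squamous epithelial markers listed (keratins, TP63, desmosomal genes and others) reached a mean of 1 FPKM or more. FPKM, fragments per kilobase of exon scaled to library size, is the deposited measure of level, and log2 fold changes come from edgeR on the deposited counts.

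Of the sensing genes, IFI16, AIM2 and SAMHD1 rose with both siRNAs, by 1.75 to 2.13-fold, CGAS rose 1.17-fold with siRNA.2, and none fell against control. STING1, TBK1, IKBKE and IRF3, which carry the signal from cGAMP to the interferon genes, did not pass the test with either siRNA. With siRNA.1, 3 of the 8 tested genes were called higher at an adjusted p under 0.05 and 0 lower, where 15% of all 21395 tested genes were called higher and 15.2% lower. With siRNA.2, 4 of 8 were called higher and 0 lower, against 15.8% and 15.1% of all genes. Over the 8 genes the median log2 fold change was 0.14 (siRNA.1) and 0.15 (siRNA.2), beside medians of 0.00 over all tested genes. The larger rises were carried by 3 genes, IFI16, AIM2 and SAMHD1, and CGAS rose less, with siRNA.2 alone. In bulk RNA, a change in the number of cells that express a gene and a change in RNA per cell cannot be told apart.

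**Figure D1:**
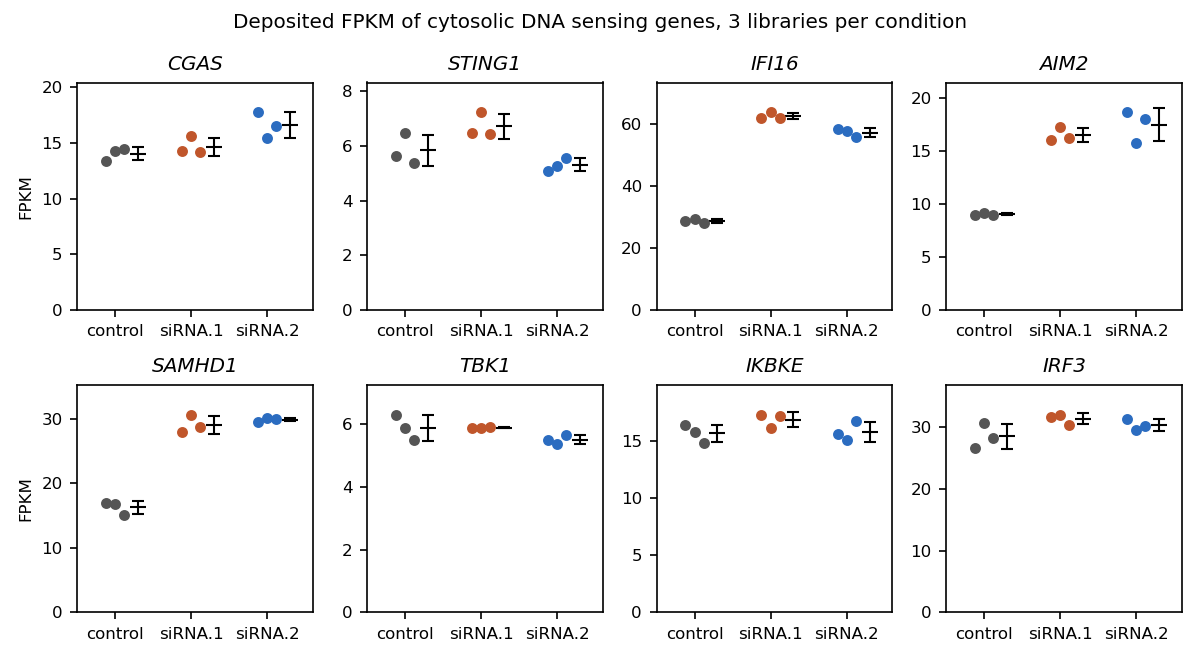
Deposited FPKM (vertical axes, from 0, a separate scale for each gene) of the 8 sensing genes with counts, by condition, with a point per library and the mean with its SD beside the points (n = 3). IFI16, AIM2 and SAMHD1 had every siRNA library above every control library, while TBK1, IKBKE and IRF3 had overlapping points.

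IFI16 (ENSG00000163565; GRCh38 chromosome 1, 158999968 to 159055155, plus strand) and AIM2 (ENSG00000163568; chromosome 1, 159062484 to 159147096, minus strand) lie side by side. Among the sensors CGAS, IFI16 and AIM2, they gave the largest rises. The RefSeq promoter table held 6 of the 9 genes, in 7 windows of 250 bases before to 50 after the transcription start (GRCh38.p14). These windows were searched on both strands for the core of the interferon-stimulated response element (ISRE), GAAANNGAA, and of the gamma-activated site (GAS), TTCNNNGAA, the sites at which interferon-activated factors bind. The ISRE core was found in the window of AIM2 and in 1 of the 2 windows of IFI16, and it occurs in 8.11% of all 35116 windows in the table. It was not found in the other IFI16 window or in those of SAMHD1, TBK1, IKBKE and TREX1. The GAS core, in 7.66% of all windows, was found in none of the 7. CGAS, STING1 and IRF3 had no window. The matches are shown because they lie before RefSeq starts of IFI16 and AIM2, which rose with both siRNAs. Both stretches fall inside the gene spans given above, so these starts are internal to the deposited gene models. Whether TE13 cells use these starts was not tested. Each match is shown in 60 bases of the gene's strand and, read as its reverse complement, stands in capitals. The IFI16 match began 74 bases before the start (chr1:159009808-159009867, plus strand) and the AIM2 match 189 bases before it (chr1:159076921-159076980, minus strand).
IFI16: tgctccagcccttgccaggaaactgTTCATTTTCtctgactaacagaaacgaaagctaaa
AIM2: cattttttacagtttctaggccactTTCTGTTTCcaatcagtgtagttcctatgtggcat
A match is a description of these letters and not evidence of binding.

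IFI16 was at 28.81, 29.41 and 28.16 FPKM in the control libraries, at 62.03, 63.79 and 61.95 with siRNA.1, and at 58.26, 57.70 and 55.70 with siRNA.2. The siRNA groups lay clear of the control group, and the siRNA.1 libraries all lay above the siRNA.2 libraries. Against control the log2 fold change was 1.09 ± 0.05 (SE) with siRNA.1, a 2.13-fold rise (edgeR adjusted p = 1.25e-125), and 0.98 ± 0.05 with siRNA.2, a 1.97-fold rise (adjusted p = 1.16e-101). The siRNA.2 libraries were lower than the siRNA.1 libraries by a log2 difference of -0.11 ± 0.04, which missed the threshold (adjusted p = 0.069). That difference was called in 8 of 19 alternative fits, among them DESeq2 (-0.12, adjusted p = 0.00616), with adjusted p up to 0.266 in the others.

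AIM2 was at 8.94, 9.14 and 8.97 FPKM in the control libraries, at 15.98, 17.25 and 16.20 with siRNA.1, and at 18.62, 15.72 and 18 with siRNA.2. Control libraries were tightly grouped and lay below every siRNA library, and the siRNA groups overlapped each other. The log2 fold change was 0.84 ± 0.10 (SE) with siRNA.1, 1.79-fold (edgeR adjusted p = 1.60e-16), and 0.94 ± 0.10 with siRNA.2, 1.92-fold (adjusted p = 2.64e-21). Its counts in the control and siRNA.1 libraries were the lowest of the 8 genes, 257 to 301 in the control libraries, and its interval was the widest among the risers. The deposited exonic length of AIM2, 1874 bases, is shorter than the 6426 bases of GENCODE release 44, so its FPKM is tied to the shorter model.

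CGAS (ENSG00000164430; chromosome 6, 73413515 to 73452297, minus strand), the gene of the enzyme that makes cGAMP, was at 13.39, 14.31 and 14.43 FPKM in the control libraries, at 14.23, 15.60 and 14.17 with siRNA.1, and at 17.76, 15.46 and 16.55 with siRNA.2. All siRNA.2 libraries lay above all control libraries, whereas the siRNA.1 group overlapped both other groups. With siRNA.2 the log2 fold change was 0.23 ± 0.06 (SE; edgeR adjusted p = 0.00209). With siRNA.1 it was 0.03 ± 0.07 (adjusted p = 0.774), and the 95% interval of -0.10 to 0.16 excludes a rise of the size estimated with siRNA.2. The siRNA.2 libraries were higher than the siRNA.1 libraries by 0.19 ± 0.06 on the log2 scale (adjusted p = 0.0243). That difference was not called without siRNA.1 replicate 1 (log2 0.18, adjusted p = 0.0943), siRNA.1 replicate 3 (0.17, adjusted p = 0.139), siRNA.2 replicate 1 (0.16, adjusted p = 0.17) or siRNA.2 replicate 3 (0.19, adjusted p = 0.0898).

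STING1 (ENSG00000184584; chromosome 5, 139475533 to 139482935, minus strand), which encodes the cGAMP receptor and adaptor, was at 5.65, 6.48 and 5.39 FPKM in the control libraries, at 6.47, 7.24 and 6.45 with siRNA.1, and at 5.10, 5.28 and 5.57 with siRNA.2. The siRNA groups did not overlap each other, and each overlapped the control group. Against control the log2 difference was 0.17 ± 0.09 (SE) with siRNA.1 (edgeR adjusted p = 0.144; 95% interval -0.004 to 0.35) and -0.14 ± 0.09 with siRNA.2 (adjusted p = 0.248; interval -0.32 to 0.03). Between the siRNAs the difference did pass, with siRNA.2 lower than siRNA.1 by -0.32 ± 0.09 on the log2 scale, 0.802 times its level (adjusted p = 0.00539). It was no longer called without siRNA.1 replicate 2 (log2 -0.27, adjusted p = 0.0608) or without siRNA.2 replicate 1 (-0.28, adjusted p = 0.0512), and without control siRNA replicate 2 the rise with siRNA.1 was called (0.25, adjusted p = 0.0492).

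Between siRNA.2 and siRNA.1 the calls on the sensing genes were thus 1 higher, CGAS, and 1 lower, STING1, where 6.1% of all genes were called higher and 6.06% lower. The ratio of CGAS to STING1 in FPKM was 2.21 to 2.68 in the control libraries, 2.16 to 2.20 in the siRNA.1 libraries and 2.93 to 3.48 in the siRNA.2 libraries. As a description with no test, the siRNA.2 range stood well above the others, and the siRNA.1 range lay just under the control range.

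SAMHD1 (ENSG00000101347; chromosome 20, 36890229 to 36951893, minus strand), a dNTP hydrolase that limits reverse transcription and also acts at stalled replication forks, rose with both siRNAs. It was at 16.89, 16.87 and 15.02 FPKM in the control libraries, at 27.88, 30.64 and 28.68 with siRNA.1, and at 29.56, 30.13 and 29.98 with siRNA.2. Every siRNA library lay above every control library, and the siRNA groups overlapped. The log2 fold change was 0.81 ± 0.04 (SE) with siRNA.1, 1.75-fold (edgeR adjusted p = 4.14e-71), and 0.87 ± 0.04 with siRNA.2, 1.83-fold (adjusted p = 2.98e-82). The siRNAs differed from each other by 0.06 (adjusted p = 0.491). Of its annotated exonic bases, 9.86% are shared with TLDC2 on the opposite strand, and whether counting used strand is not stated. TLDC2 had at most 31 counts in a library, against 2807 or more for SAMHD1.

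TREX1 (ENSG00000213689; chromosome 3, 48465811 to 48467645, plus strand), the exonuclease that degrades cytosolic DNA before cGAS can read it, had 0 counts in all 9 libraries. Its 1448 exonic bases all lie inside exons of ATRIP (ENSG00000164053; chromosome 3, 48446710 to 48467645), a replication checkpoint gene on the same strand. The 0 is shared by most genes placed in this way. Of 53 protein-coding genes whose exons lie wholly inside the exons of 1 other gene of the same strand, 50 (94.3%) had 0 counts in every library, compared with 2341 of 17891 (13.1%) of those with under 10% of their exons shared. The TREX1 value was therefore not read as a level, and how reads in exons shared by several genes were counted is not given in the sources used here. ATRIP itself gave 278, 308 and 317 counts in the control libraries, 403, 360 and 393 with siRNA.1, and 447, 424 and 492 with siRNA.2. Against control its log2 fold change came to 0.28 with siRNA.1 (edgeR adjusted p = 0.0302) and 0.25 with siRNA.2 (adjusted p = 0.0541). Whether any of the ATRIP counts came from TREX1 transcripts, or reads in the shared exons were left out of both genes, is not known.

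The kinases did not pass the test. TBK1 (ENSG00000183735; chromosome 12, 64452090 to 64502114, plus strand), the kinase that phosphorylates both STING and IRF3, was at 6.29, 5.85 and 5.47 FPKM in the control libraries, at 5.86, 5.86 and 5.90 with siRNA.1, and at 5.50, 5.35 and 5.64 with siRNA.2. Both siRNA groups fell within or overlapped the control range. Its log2 difference from control was -0.02 with siRNA.1 (edgeR adjusted p = 0.827; 95% interval -0.14 to 0.09) and -0.10 with siRNA.2 (adjusted p = 0.189; interval -0.22 to 0.01).

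IKBKE (ENSG00000263528; chromosome 1, 206470476 to 206496889, plus strand), which encodes the related kinase IKKε, was at 16.36, 15.79 and 14.81 FPKM in the control libraries, at 17.30, 16.09 and 17.18 with siRNA.1, and at 15.60, 15.07 and 16.73 with siRNA.2. The 3 groups overlapped. The log2 difference was 0.08 with siRNA.1 (edgeR adjusted p = 0.394; 95% interval -0.05 to 0.21) and 0.01 with siRNA.2 (adjusted p = 0.975; interval -0.12 to 0.13). Per kilobase of exon, IKBKE stood above TBK1 in every library, at 2.601 to 2.97 times its FPKM. TBK1 carries an annotated exonic length of 14716 bases against 3791 for IKBKE, which lowers its FPKM where a shorter transcript is made.

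IRF3 (ENSG00000126456; chromosome 19, 49659569 to 49665875, minus strand), the transcription factor activated by TBK1, was at 26.64, 30.76 and 28.23 FPKM in the control libraries, at 31.70, 32.06 and 30.40 with siRNA.1, and at 31.43, 29.59 and 30.17 with siRNA.2. The control libraries had the widest spread and overlapped both siRNA groups. The log2 difference was 0.11 ± 0.05 (SE) with siRNA.1 (edgeR adjusted p = 0.119; 95% interval 0.003 to 0.22, not adjusted for the number of genes) and 0.08 ± 0.05 with siRNA.2 (adjusted p = 0.291; interval -0.03 to 0.19). Without control siRNA replicate 2 the difference with siRNA.1 was 0.16 and was called (adjusted p = 0.029). The exons of IRF3 share 19.3% of their bases with BCL2L12 on the opposite strand. BCL2L12 had up to 866 counts in a library, against 1550 or more for IRF3. Its log2 difference from control was -0.05 with siRNA.1 (edgeR adjusted p = 0.665) and -0.28 with siRNA.2 (adjusted p = 0.000846). Its part in the IRF3 values was not tested.

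**Figure D2:**
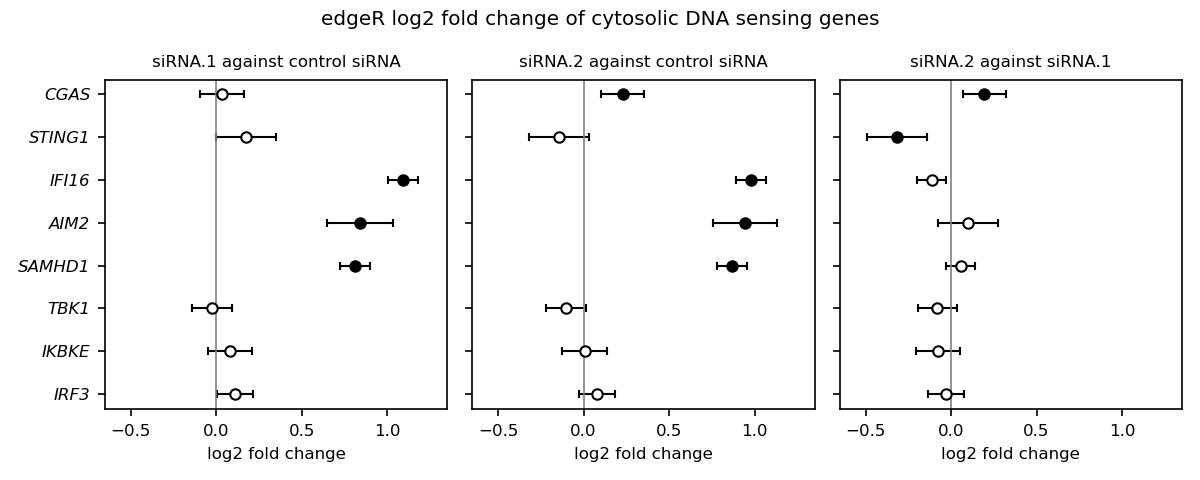
Log2 fold change from edgeR (horizontal axes) of the 8 tested sensing genes in the 3 comparisons, with 95% intervals as bars, filled points for an adjusted p under 0.05 and open points for the rest. IFI16, AIM2 and SAMHD1 stand between 0.81 and 1.09 with either siRNA, and in the right panel only CGAS, at 0.19, and STING1, at -0.32, are filled.

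By level in the control libraries, IFI16 and IRF3 were highest (means of 28.8 and 28.5 FPKM) and did not differ beyond the spread between libraries. SAMHD1 and IKBKE followed at 16.3 and 15.7 FPKM, also overlapping, then CGAS at 14.0 and AIM2 at 9.02, each clear of its neighbours. TBK1 and STING1 were lowest, at 5.87 and 5.84 FPKM, and could not be ordered. FPKM is scaled by annotated exonic length, so these orders depend on the gene models. TBK1, with 14716 annotated bases, had 1341 to 1440 counts in the control libraries, more than the 933 to 1005 of IKBKE. Every one of the 8 lay above 76.5% or more of the genes with a count in the control libraries. With siRNA.1 the order became IFI16 at 62.6 FPKM, then IRF3 and SAMHD1 together (31.4 and 29.1), IKBKE and AIM2 together (16.9 and 16.5), CGAS at 14.7, STING1 at 6.72 and TBK1 at 5.87. With siRNA.2 it was IFI16 at 57.2 FPKM, IRF3 and SAMHD1 together (30.4 and 29.9), AIM2, CGAS and IKBKE together (17.5, 16.6 and 15.8), and TBK1 and STING1 together (5.50 and 5.32). IFI16 thus moved from 1.95 to 2.15 times the FPKM of CGAS in the control libraries to 4.09 to 4.37 times with siRNA.1 and 3.28 to 3.73 times with siRNA.2.

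Since IFI16, AIM2 and SAMHD1 are also highly expressed in blood cells, a list of 10 blood cell markers was read beside them. In summed FPKM the markers were at 5.54 to 6.63 in the control libraries, 7.89 to 8.81 in the siRNA.1 libraries and 7.41 to 8.73 in the siRNA.2 libraries. Of the 10, only LYZ and LAPTM5 reached a mean of 1 FPKM, MS4A1 was at 0 in every library, and PTPRC, the pan-leukocyte marker CD45, had means of 0.033, 0.153 and 0.147 FPKM. Of 6 markers tested, 4 (66.7%) were called higher and 1 (16.7%) lower with each siRNA, where 15% and 15.8% of all genes were called higher and 15.2% and 15.1% lower. Their median log2 fold change was 1.78 (siRNA.1) and 2.04 (siRNA.2), or 1.503 and 1.498 when TYROBP, at 3 counts or fewer in each control library, is set at its lower bound. These medians lie above the log2 fold changes of IFI16, AIM2 and SAMHD1. PTPRC and TYROBP, with control means of 0.033 and 0.09 FPKM, passed the filter of 0.1 FPKM only through their siRNA libraries. CD2, CD3E, CD79A and MS4A1 fell below it and were not tested. The share of markers called higher and these medians are therefore partly set by the filter. The mean sum was higher by 2.17 FPKM (siRNA.1) and 2.15 FPKM (siRNA.2). LYZ alone, which went from a mean of 0.317 to 2.79 and 3.08 FPKM, added more than that, while LAPTM5 fell from 4.95 to 3.00 and 2.40 FPKM. Over the same comparisons IFI16 rose by 33.8 and 28.4 FPKM, SAMHD1 by 12.8 and 13.6 and AIM2 by 7.46 and 8.43. The squamous epithelial markers were lower in sum, from 965 to 985 FPKM in the control libraries to 764 to 794 (siRNA.1) and 756 to 773 (siRNA.2). By count, 6 of the 10 (60%) were lower and 3 (30%) higher with each siRNA, beside the shares of all genes given above. KRT5 fell from 143 FPKM to 40.0 and 55.8 and SFN from 305 to 180.0 and 182, whereas EPCAM rose by 0.44 and 0.45, KRT6A by 0.34 and 0.58 and DSG3 by 0.58 and 0.27 on the log2 scale. A list of 9 fibroblast and endothelial markers summed to 3.43 to 3.99 FPKM in the control libraries and 1.99 to 2.53 in the siRNA libraries. Of 4 tested, 0 were higher and 3 (75%) lower with each siRNA, where 15.2% and 15.1% of all genes were called lower. LUM, which was not called, passed the filter only through its control libraries (means of 0.26, 0.08 and 0.07 FPKM). The part of the blood cell, epithelial and fibroblast marker shifts in the results on the sensing genes was not tested.

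The genes around the pathway were read from lists of known members, whose counts stand beside 15% of all genes called higher and 15.2% lower with siRNA.1, and 15.8% and 15.1% with siRNA.2. Of 21 tested genes of other DNA sensors, 6 were higher (28.6%) and 8 lower (38.1%) with siRNA.1 and 6 higher (28.6%) and 2 lower (9.52%) with siRNA.2, with median log2 fold changes of 0.01 and 0.05. MNDA, counted among the 6 with each siRNA, passed the filter of 0.1 FPKM only through its siRNA libraries (control mean 0.01 FPKM). Its place in those counts is therefore set by its own rise. ZBP1, a sensor of Z-form nucleic acids and itself interferon-stimulated, rose from a mean of 0.733 FPKM to 3.27 and 2.98, by 2.13 and 2.01 on the log2 scale (edgeR adjusted p = 1.37e-45 and 3.95e-41). The RNA polymerase III subunits POLR3A and POLR3C, parts of the enzyme that transcribes AT-rich cytosolic DNA into an RNA ligand, rose less. POLR3A rose by 0.32 and 0.44 and POLR3C by 0.47 and 0.42 on the log2 scale. ZCCHC3, a cofactor of cGAS in DNA binding, rose by 0.50 and 0.26. The remaining PYHIN genes, which were named after their values were seen, were nearly absent from control cells. MNDA had 1, 0 and 0 counts in the controls, 17, 13 and 21 with siRNA.1, and 11, 16 and 20 with siRNA.2, at least 5.41-fold and 4.09-fold higher when the control is set at 3 counts per library. PYHIN1 had 0 counts in all 9 libraries.

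Of 17 tested genes of cGAMP transport and STING regulation, 2 were higher and 2 lower with siRNA.1 (11.8% each, under the 15% and 15.2% of all genes). With siRNA.2, 4 were higher (23.5%, against 15.8%) and 2 lower (11.8%, against 15.1%), and the medians were -0.02 and 0.00. USP18, an interferon-stimulated protease that removes ISG15 and has been linked to STING deubiquitination, had the highest fold changes, from 6.99 FPKM to 36.0 and 28.7, or 2.34 and 2.02 on the log2 scale (edgeR adjusted p = 2.91e-162 and 1.60e-120). RNF5, a ubiquitin ligase that marks STING for degradation, was at 21.3 FPKM in the control libraries, 18.5 with siRNA.1 and 11.0 with siRNA.2. It fell with siRNA.2 by 0.97 on the log2 scale (adjusted p = 2.36e-17), missed the threshold with siRNA.1 at -0.23 (adjusted p = 0.0857), and differed between the siRNAs by -0.74 (adjusted p = 1.72e-09). STIM1, which holds STING at the endoplasmic reticulum, rose by 0.32 and 0.30. TOLLIP, which stabilises STING, fell with siRNA.1 by 0.42 (adjusted p = 1.61e-05) and was at -0.17 with siRNA.2 (adjusted p = 0.137).

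Of 10 tested nucleases and DNA containment genes, 1 was higher and 2 lower with siRNA.1 (10% and 20%, against 15% and 15.2% of all genes). With siRNA.2, 5 were higher (50%, against 15.8%) and 1 lower (10%, against 15.1%), and the medians were 0.04 and 0.12. The ribonuclease H2 subunit RNASEH2B rose by 0.19 (edgeR adjusted p = 0.0303) and 0.28 (adjusted p = 0.000443). RNASEH2A rose by 0.30 with siRNA.2 (adjusted p = 0.0221) and was at 0.14 with siRNA.1 (adjusted p = 0.41). The lysosomal exonuclease PLD3 fell by 0.19 and 0.28. LMNB1, a protein of the nuclear lamina, was at 43.96 FPKM in the control libraries and moved in opposite directions. It fell to 34.7 FPKM with siRNA.1, by 0.37 on the log2 scale (adjusted p = 8.42e-12), and rose to 48.2 with siRNA.2, by 0.12 (adjusted p = 0.0426), with a difference between the siRNAs of 0.49 (adjusted p = 3.41e-20).

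AIM2's inflammasome partners moved in both directions. Of 5 tested, 1 was higher (20%, against 15% of all genes) and 3 lower (60%, against 15.2%) with siRNA.1, and 1 higher (20%, against 15.8%) and 1 lower (20%, against 15.1%) with siRNA.2, with medians of -0.16 and -0.12. PYCARD, which encodes ASC, the adaptor between AIM2 and caspase-1, had at most 3 counts in any library and was not tested. IL18, the precursor of a cytokine cleaved by caspase-1, fell from 32.1 FPKM to 20.1 and 17.4, by 0.70 and 0.89 on the log2 scale (edgeR adjusted p = 1.14e-24 and 6.90e-40). CASP1 fell by 0.41 with siRNA.1 (adjusted p = 0.000296) and was at -0.19 with siRNA.2 (adjusted p = 0.143). CARD16, a CARD protein that binds caspase-1, rose by 0.56 with siRNA.1 (adjusted p = 0.00672) and was at 0.08 with siRNA.2 (adjusted p = 0.795). IL1B, the precursor of another caspase-1 substrate cytokine and named after its values were seen, fell by 0.16 with siRNA.1 (adjusted p = 0.00519) and rose by 0.20 with siRNA.2 (adjusted p = 0.000142). The pore-forming GSDMD was at 0.00 and -0.12 (adjusted p = 0.994 and 0.185).

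Of 16 kinase adaptors and downstream factors, 4 were higher and 3 lower with siRNA.1 (25% and 18.8%, against 15% and 15.2% of all genes). With siRNA.2, 1 was higher (6.25%, against 15.8%) and 2 lower (12.5%, against 15.1%), and the medians were 0.11 and -0.02. TRAF3, a ubiquitin ligase that couples receptors to TBK1, rose by 0.40 (edgeR adjusted p = 7.91e-11) and 0.53 (adjusted p = 7.22e-19). MAVS, the adaptor of the RNA sensors, fell by 0.41 and 0.47 (adjusted p = 2.47e-15 and 2.27e-20). TANK, a scaffold of TBK1 and IKKε, fell by 0.44 and 0.22. NFKB1, a subunit of NF-kB, fell by 0.49 with siRNA.1 (adjusted p = 1.31e-15) and was at -0.11 with siRNA.2 (adjusted p = 0.143).

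Downstream of the factors the changes were larger. Of 10 tested outputs of IRF3 and NF-kB, 8 were higher (80%) and 1 lower (10%) with each siRNA, against 15% and 15.8% of all genes higher and 15.2% and 15.1% lower, with median log2 fold changes of 2.24 and 2.03. IFNB1, named after its values were seen, had at most 2 counts in a control library, and with it set at its lower bound the siRNA.1 median was 2.06 and the siRNA.2 median was still 2.03. The chemokine CXCL10 rose from 7.73 FPKM to 85.3 and 104, and the interferon-induced IFIT1 from 11.3 to 105.0 and 89.3. IFNL1, a type III interferon, rose from 0.500 FPKM to 4.18 and 4.35, or 3.01 and 3.08 on the log2 scale (edgeR adjusted p = 2.34e-14 and 1.50e-15), from only 3 to 8 counts per control library. ISG15, a ubiquitin-like interferon-stimulated protein, rose by 2.31 and 2.08. CCL5, also named after its values were seen, was the gene that fell, from 51.9 FPKM to 43.2 and 45.4. These genes are reached by interferon, RNA sensors and other routes too, and which route they followed was not tested.

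**Figure D3:**
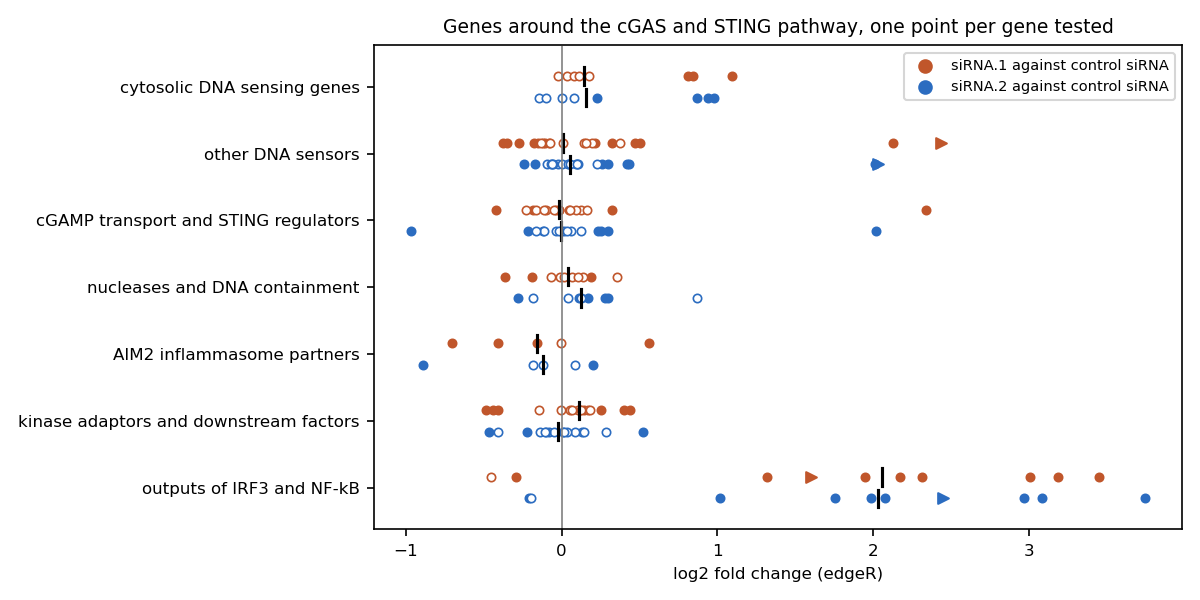
Log2 fold change against control (horizontal axis) of each tested gene of the sensing genes and of 6 surrounding lists, with siRNA.1 above siRNA.2 in each pair, filled points for an adjusted p under 0.05, and a black bar at the list's median. Triangles mark MNDA and IFNB1 at their lower bounds. The outputs of IRF3 and NF-kB have medians of 2.06 and 2.03 with IFNB1 at its bound, and the other medians lie between -0.16 and 0.15.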

How the data were processed

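The authors captured poly(A)+ RNA, aligned reads to GRCh38 (STAR) and assigned them to genes (featureCounts). Tool versions, annotation release, strandedness and the treatment of reads that fall on several genes are not given in the sources used here. The authors deposited raw counts per gene, FPKM for the same libraries and exonic gene lengths, and counts and lengths returned 100% of the FPKM values within rounding. Libraries were grouped by their labels. Counts were tested with edgeR 4.0.16 (quasi-likelihood, TMM) in R 4.3.3, with all 3 conditions in 1 model. The 21395 genes averaging 0.1 FPKM or more were tested, and p-values were Benjamini-Hochberg adjusted and called under 0.05. Intervals of 95% are 1.96 SE on each side. Exon overlaps came from GENCODE release 44, which held 60463 of the table's genes by identifier, 93.8% with the same span, and promoters from RefSeq. Replicate libraries varied beyond sampling noise (chi-square per degree of freedom of 2.76 to 4.62), and total counts limit the precision of genes with few counts. DESeq2 1.42.0, limma 3.58.1, other scalings and filters, a replicate block and each library left out in turn were alternatives. The genes and lists were chosen with earlier results of these data known, so no pattern here is independent support. Up to 4 genes were named per list, those with the largest mean change of both siRNAs among genes of at least 1 FPKM, and 3 correlated genes for each of CGAS and STING1. Tables and plots were made in Python 3.11.15 with pandas 2.3.3 and matplotlib 3.10.9. The tests were tried on simulated data.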

Additional observations from a re-analysis of the deposited data

Results flagged for a closer look

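CGAS and STING1 differed between the siRNAs in the direct edgeR test of siRNA.2 against siRNA.1, although both siRNAs target LINC00885. For CGAS the log2 difference was 0.19 (adjusted p = 0.0243), with means of 14.7 FPKM with siRNA.1 and 16.6 with siRNA.2. For STING1 it was -0.32 (adjusted p = 0.00539), with means of 6.72 and 5.32 FPKM. The CGAS call was lost in 4 of the 9 fits that leave out a library and the STING1 call in 2 of 9. For each gene, all 9 of these fits kept the direction.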

How the results depend on the processing

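Of 456 gene values under alternatives, 424 kept direction and side of the threshold, 9 lost the call, 11 gained it and 12 changed sign, the last all in genes not called. IFI16, AIM2 and SAMHD1 with both siRNAs, and CGAS with siRNA.2 (0.19 to 0.27), kept their calls in all 19 alternative fits. A minimum change of 1 on the log2 scale left 1, 0 and 0 sensing genes called with siRNA.1, with siRNA.2 and between the siRNAs, and 847, 861 and 130 of all genes in place of 6472, 6614 and 2603. Between the siRNAs, limma on log2(FPKM + pseudocount) called 1437, 1414 and 1449 genes at pseudocounts of 0.1, 1 and 0.01, and lost CGAS (adjusted p = 0.142 to 0.143). Leaving out a library gave 3 to 5, always 4, and 0 to 2 sensing genes. It gave 5 without control siRNA replicate 2, and 0 without siRNA.2 replicate 1. TBK1 with siRNA.1 turned to 0.0031, 0.0024 and 0.0032 in limma, 0.0035 with library totals alone and between -0.072 and 0.029 without a library. CGAS with siRNA.1 turned to -0.0047 without siRNA.1 replicate 2 and was 0.056 at most without a library. IKBKE with siRNA.2 turned to -0.0044 in DESeq2, -0.0042 with its size factors, -0.0028 with genes of at least 1 FPKM, -0.00018 with only the 6 libraries compared, -0.033 without control siRNA replicate 3 and -0.045 without siRNA.2 replicate 3 (at most 0.038 without a library). IFI16 between the siRNAs gained the call in DESeq2, the 3 limma fits, both other scalings, genes of at least 1 FPKM and the 6 libraries compared (-0.13 to -0.12). IRF3 with siRNA.1 was called with library totals alone (0.14, adjusted p = 0.0364). Replicate numbers did not pair the libraries (correlations of -0.12 to 0.05), and with a replicate block 3, 4 and 2 sensing genes and 6215, 6359 and 2342 of all genes were called. The causes of these changes were not tested.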

Other observations

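Over the 9 libraries, IFI16, AIM2 and SAMHD1 varied together (Pearson r of log2 CPM of 0.97 to 0.98), whereas CGAS and STING1 did not (r = -0.49). These correlations mostly reflect 3 conditions of 3 libraries and are descriptions. Among 12532 genes averaging 1 FPKM or more, those most like CGAS were HDHD5, ERI2 and VPS25 (r = 0.94 for each), and those most like STING1 were CADM4 (r = 0.97), DEDD and TONSL (0.93 each).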
